A study of Saccharomyces cerevisiae with 12 samples.

Results

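The mitochondrial genome of Saccharomyces cerevisiae was represented by 23 of the 6256 gene probes on the array. They are the probes whose systematic gene name begins with Q0, the prefix of the mitochondrial chromosome. The rule uses the name and no measured value, but earlier results of these data were known when it was set. The 23 probes stand for 22 reading frames, of which 8 are protein genes, 10 lie in introns and 4 have no gene symbol; the frame Q0010.1 has 2 probes. The annotation of assembly R64 named 19 of the 22 frames, and Q0010.1, Q0182.1 and Q0297.1 were not matched there.

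The study measured RNA of the yeast strain L40 on 12 single-colour Agilent arrays, 4 per group. The first group stably expressed scFv-58F (58F below), a single-chain antibody fragment made inside the cell, or intrabody, that is directed against histone H3 acetylated at K9. The second stably expressed scFv-112A (112A below), an intrabody against acetylated integrase that serves as the control, and the third was wild type L40 with no intrabody. Plates and first cultures of the 58F and 112A strains held medium lacking leucine (SD-Leu), those of the wild type held YPD, a rich medium, and the last overnight culture of all 3 groups was grown in YPD at 30 °C from an OD600 of 0.2. The labels do not say whether the 4 samples of a group came from separate cultures, so p-values measure the spread between these arrays, which may be technical.

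The mitochondrial genome of yeast encodes a small set of hydrophobic subunits of respiratory complexes III and IV and of the ATP synthase, together with one protein of the mitochondrial ribosome. The nuclear genome supplies all other subunits and the RNA polymerase, splicing factors and nucleases that act on mitochondrial transcripts. Several genes are read as long shared transcripts that are cut and spliced, and some introns carry reading frames for maturases, which help to splice their own intron, or for endonucleases, which copy the intron into genomes that lack it. Mature mitochondrial messenger RNAs of this yeast carry no poly(A) tail, and the labelled RNA was poly(A)+ RNA per the labels; how that selection acted on these transcripts was not tested.

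Levels below are log2 processed Cy3 signals minus the 75th percentile of the same array, the mean of the 2 spots of a probe, and they are compared between arrays for 1 probe at a time. To be tested, a probe needed a signal well above background on 4 or more of the 12 arrays, and 21 of the 23 mitochondrial probes and 5858 of all gene probes met this. The other 2, for AI4 and BI4, were well above background on 0 of 12 arrays and have no fold change. A change was called at an adjusted p under 0.05, from limma with Benjamini-Hochberg adjustment over all 5858 probes.

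The arrays differed in ways that touch these probes. LEU2, the marker selected by medium without leucine, stood at 6.06 to 6.24 on the 58F arrays and 5.64 to 5.99 on the 112A arrays, against 1.46 to 1.62 on the wild type arrays, in accord with the labels. Both intrabody strains thus differed from wild type in LEU2 and in the medium of plates and first cultures. In the comparisons with wild type these cannot be told apart from the intrabody. Each group lay on 1 slide with 1 scan, so slide and group cannot be told apart. The 75th percentile was 4739 to 5782 on the 58F arrays and 4984 to 5254 on the 112A arrays. Wild type replicate 1 stood apart: its 75th percentile was 9362, against 5592 to 6047 on the other wild type arrays. Its unscaled signal was 1.67 times that of the other wild type replicates at the median over all other probes but 1.15 times over the tested mitochondrial probes. After scaling, the median mitochondrial probe was 0.49 lower there than on the other wild type arrays, and 19 of 21 tested mitochondrial probes had their lowest wild type level on that array, which held for 29.5% of the other probes. Its part in each result was not tested beyond the values without it, given for each tested mitochondrial probe other than SCEI.

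Against wild type, most of the mitochondrial probes were higher in both intrabody strains. Setting aside SCEI, which met the background criterion only through the intrabody arrays, 14 of 20 were called higher in 58F and 14 of 20 in 112A, and 1 was called lower in each comparison. The shares over all probes tested were 29.7% called higher and 32.1% called lower for 58F, and 23.0% and 25.3% for 112A. All 4 intrabody arrays exceeded all 4 wild type arrays for 14 of the 20 in 58F and 14 in 112A, which held for 27.3% and 17.9% of all probes, and all 4 were below wild type for 1 of the 20 in each comparison, against 30.5% and 21.9% of all probes. The median change of the 20 was 0.45 in 58F and 0.44 in 112A, against -0.01 and -0.00 over all probes. Both comparisons use the same 4 wild type arrays. Without wild type replicate 1, 12 of these 14 were called higher in 58F and 14 of 14 in 112A. With any 1 array left out, 1537 to 1790 of all probes were called higher in 58F and 1121 to 1456 in 112A.

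**Figure D1:**
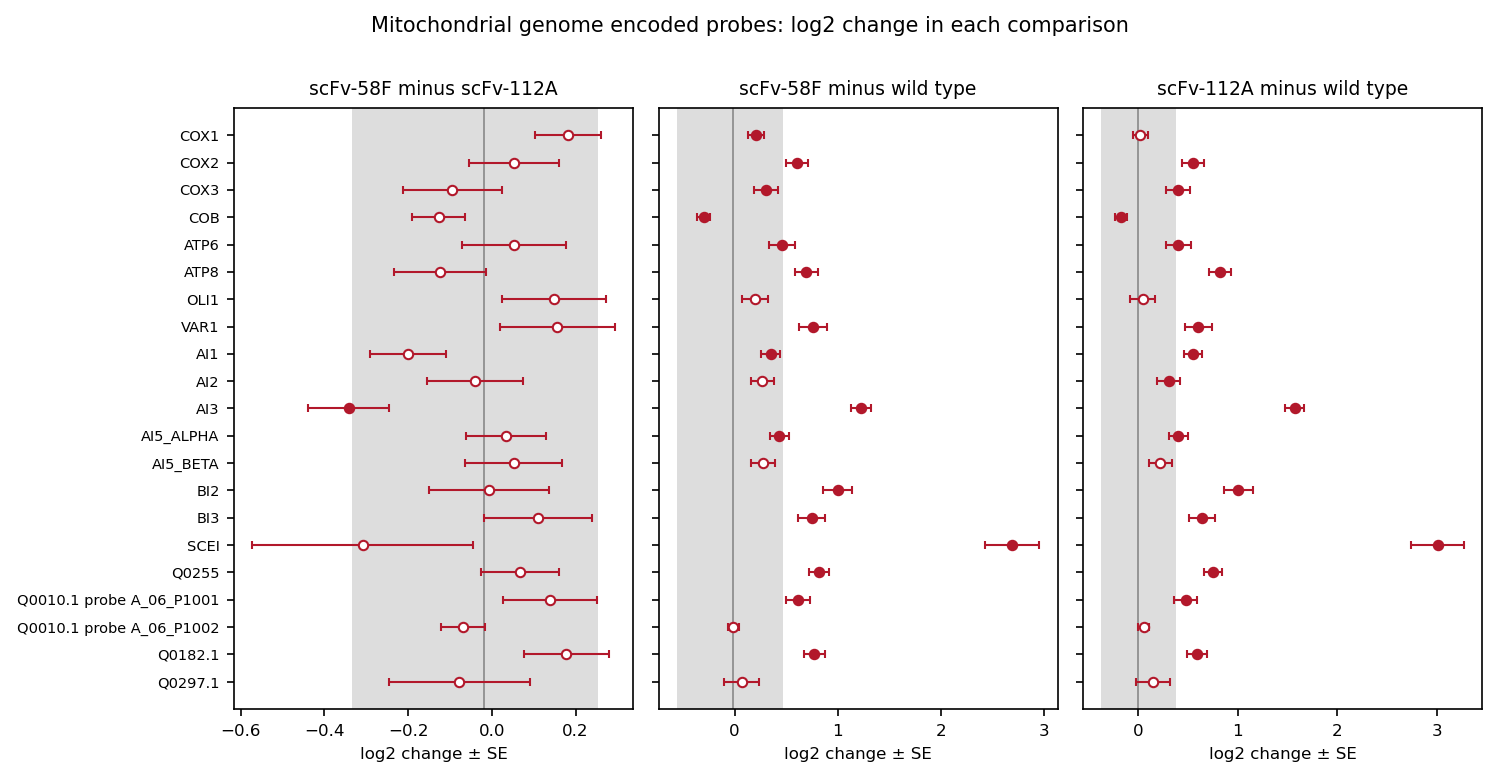
Log2 change ± SE of the 21 tested mitochondrial probes in the 3 comparisons, with filled points where the change was called and open points where it was not. The grey band spans the 10th to 90th percentile of all probes tested and the grey line is their median. Against wild type most points lie to the right of the line, with AI3 and SCEI farthest out. SCEI met the background criterion only through the intrabody arrays, so its point is a description and its fill is not counted as a result. Between 58F and 112A only AI3 is filled.

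Cytochrome c oxidase, complex IV, has its 3 catalytic core subunits encoded in the mitochondrial genome. COX2, which carries the copper centre that takes electrons from cytochrome c, stood at 0.90, 0.96, 1.14 and 0.91 in 58F and at 0.97, 0.85, 0.98 and 0.91 in 112A, against -0.01, 0.50, 0.45 and 0.56 in wild type. None of the 8 intrabody arrays overlapped the wild type range. The change was 0.60 ± 0.11 (SE, adjusted p = 0.000456) in 58F and 0.55 ± 0.11 (adjusted p = 0.00157) in 112A, and 0.47 and 0.42 without wild type replicate 1.

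COX3, a core subunit without metal centres, measured 0.69, 0.69, 0.94 and 0.63 in 58F and 0.94, 0.84, 0.69 and 0.87 in 112A, against 0.03, 0.55, 0.54 and 0.61 in wild type. Neither intrabody group overlapped wild type, but the gap between 58F replicate 4 and wild type replicate 4 was narrow. COX3 was higher by 0.30 ± 0.12 in 58F (adjusted p = 0.0407) and by 0.40 ± 0.12 in 112A (adjusted p = 0.0155). The 58F call was lost in 10 of 24 alternative settings, with normexp background correction at adjusted p = 0.128. Among them were the fits without 58F replicate 1, 2 or 3, 112A replicate 4 or wild type replicate 1 (adjusted p 0.0511 to 0.117). Without wild type replicate 1 the change in 58F was 0.17. In 112A it was 0.27 without wild type replicate 1.

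COX1, the subunit that holds the oxygen-reducing site, was at 0.21, 0.08, 0.26 and 0.19 in 58F and at 0.08, 0.03, 0.03 and -0.12 in 112A, against -0.27, 0.07, 0.11 and -0.00 in wild type. The 58F arrays lay above all wild type arrays but replicate 3, which exceeded 58F replicate 2, and the 112A arrays fell within the wild type range. The change was 0.21 ± 0.08 (adjusted p = 0.0386) in 58F and 0.02 ± 0.08 (adjusted p = 0.817) in 112A. The 58F call was lost in 10 of 24 alternative settings, with normexp background correction at adjusted p = 0.205. Among them were the fits without 58F replicate 1, 3 or 4 or wild type replicate 1 or 4 (adjusted p 0.0592 to 0.0955). Without wild type replicate 1 the change was 0.13 in 58F and -0.06 in 112A.

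COB, cytochrome b of complex III, moved the other way. Its levels were 2.21, 2.09, 2.27 and 2.02 in 58F and 2.30, 2.29, 2.30 and 2.21 in 112A, against 2.40, 2.41, 2.57 and 2.40 in wild type. Every intrabody array lay below every wild type array, and wild type replicate 1 was not apart from its group for this probe. COB fell by 0.30 ± 0.06 in 58F (adjusted p = 0.00141) and by 0.17 ± 0.06 in 112A (adjusted p = 0.0395), and the changes were -0.32 and -0.19 without wild type replicate 1. The 58F call was lost under quantile scaling (-0.10, adjusted p = 0.181). The 112A call was lost in 8 of 24 alternative settings, among them the fits without 112A replicate 1, 2 or 4 or wild type replicate 2 or 3 (adjusted p 0.0543 to 0.12).

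The ATP synthase has 3 subunits from the mitochondrial genome. ATP8, a small subunit of the membrane part, was measured at 1.27, 1.25, 1.38 and 1.31 in 58F and at 1.56, 1.25, 1.47 and 1.43 in 112A, against 0.24, 0.77, 0.62 and 0.79 in wild type. The groups did not overlap, and 112A replicate 2, the lowest of its group, was still clear of the highest wild type array. ATP8 was higher by 0.70 ± 0.11 in 58F (adjusted p = 0.000187) and by 0.82 ± 0.11 in 112A (adjusted p = 0.000133), and by 0.57 and 0.70 without wild type replicate 1.

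ATP6, the subunit through which protons pass to the rotating ring, shares its transcript with ATP8 and COX1 in this yeast. It measured 1.86, 1.80, 1.75 and 1.75 in 58F and 1.75, 1.74, 1.78 and 1.69 in 112A, against 0.86, 1.59, 1.34 and 1.53 in wild type. Wild type replicate 2 came nearest to the intrabody arrays, all of which were higher. The change was 0.46 ± 0.12 in 58F (adjusted p = 0.00678) and 0.41 ± 0.12 in 112A (adjusted p = 0.0182), and 0.30 and 0.25 without wild type replicate 1, with both calls kept. On 9 arrays 1 of the 2 ATP6 spots was left out as an outlier of the image analysis. Where both were kept, they differed by up to 0.39 log2 units on an array, near the size of the changes.

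OLI1, the subunit of the rotating ring, was at 6.60, 6.79, 6.90 and 6.69 in 58F and at 6.57, 6.66, 6.53 and 6.62 in 112A, against 6.10, 6.77, 6.63 and 6.70 in wild type. The 3 groups overlapped, with wild type replicate 1 below all other arrays. The change of OLI1 was 0.20 ± 0.12 in 58F (adjusted p = 0.189) and 0.05 ± 0.12 in 112A (adjusted p = 0.773), and neither was called. It was 0.05 in 58F and -0.10 in 112A without wild type replicate 1. The sign and the call depended on scaling. With quantile scaling OLI1 was called lower in both strains, at -0.12 in 58F (adjusted p = 0.00407) and -0.12 in 112A (adjusted p = 0.00613). With cyclic loess scaling it was called higher in both, at 0.49 in 58F (adjusted p = 5.89e-05) and 0.18 in 112A (adjusted p = 0.0388), and higher in 58F than in 112A, at 0.31 (adjusted p = 0.0042).

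VAR1, a protein of the small mitochondrial ribosomal subunit and the only ribosomal protein gene on this genome, is read from the same transcript as OLI1. Its levels were -0.94, -0.86, -0.73 and -0.99 in 58F and -0.95, -1.12, -1.11 and -0.97 in 112A, against -2.14, -1.50, -1.60 and -1.34 in wild type. No intrabody array reached down to the wild type range. VAR1 was higher by 0.76 ± 0.14 in 58F (adjusted p = 0.000518) and by 0.60 ± 0.14 in 112A (adjusted p = 0.00393), and by 0.60 and 0.44 without wild type replicate 1.

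By class, 6 of the 8 protein genes were called higher and 1 lower in 58F than in wild type, beside 29.7% and 32.1% of all probes, with a median change of 0.38. In 112A 5 were called higher and 1 lower, beside 23.0% and 25.3% of all probes, with a median of 0.40.

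**Figure D2:**
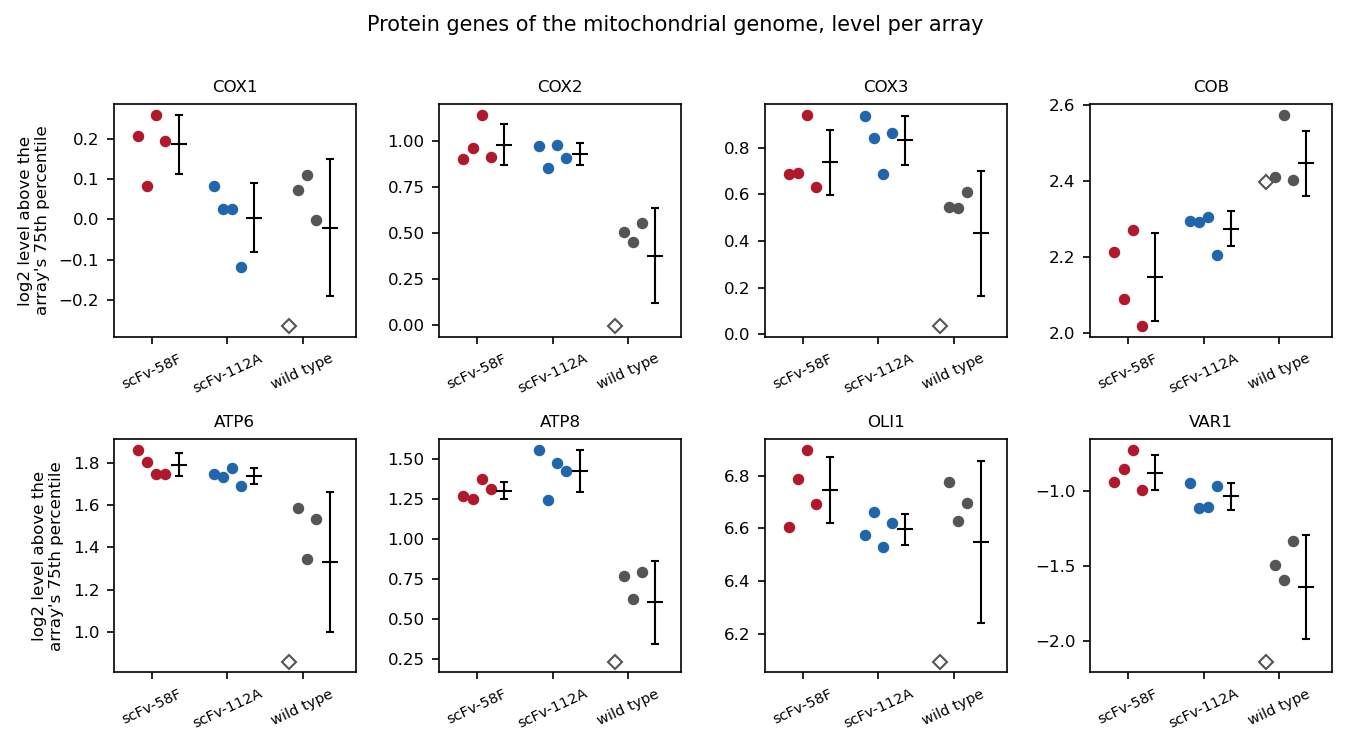
Level of the 8 mitochondrial protein genes on each array (log2 signal above the array's 75th percentile), in 58F, 112A and wild type from left to right, with the open diamond for wild type replicate 1 and black bars for the group mean ± SD (n = 4). COX2, ATP8 and VAR1 lie clear above wild type in both intrabody strains, COB lies below it, and OLI1 overlaps it apart from the diamond.

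The intron frames lie inside the spans of COX1 and COB in the annotation, with SCEI inside the large ribosomal RNA gene. AI1 to AI5_BETA belong to COX1 and BI2 to BI4 to COB, and the annotated spans of AI5_ALPHA, AI4, AI3, AI2 and AI1 are nested from the longest to the shortest, as are BI4, BI3 and BI2. Some of these introns are present in some yeast strains and absent from others. Whether L40 carries each of them is not given in the sources used here, and AI4 and BI4 were not well above background on any array of the 3 groups.

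Of the 7 intron frames tested other than SCEI, 5 were called higher in 58F than in wild type and 6 in 112A, beside 29.7% and 23.0% of all probes, and 0 were called lower, beside 32.1% and 25.3%. Their median change was 0.44 in 58F and 0.55 in 112A. The intron and protein classes were not tested against each other.

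AI3, an endonuclease frame of a COX1 intron, stood at -4.77, -4.68, -4.80 and -4.80 in 58F and at -4.30, -4.46, -4.39 and -4.54 in 112A, against -6.10, -5.70, -6.23 and -5.94 in wild type. The 3 groups did not overlap one another. It was higher by 1.23 ± 0.10 in 58F (adjusted p = 1.15e-06) and by 1.57 ± 0.10 in 112A (adjusted p = 7.78e-07), which is 2.34-fold and 2.97-fold. The changes were 1.19 and 1.53 without wild type replicate 1. Its signal was dim and was well above background on 3 of the 4 wild type arrays.

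BI2, a maturase frame of COB, measured -2.56, -2.47, -2.37 and -2.46 in 58F and -2.39, -2.54, -2.40 and -2.50 in 112A, against -4.02, -3.20, -3.38 and -3.26 in wild type. The 8 intrabody arrays were close together and clear of wild type. BI2 was higher by 1.00 ± 0.14 in 58F (adjusted p = 9.29e-05) and by 1.01 ± 0.14 in 112A (adjusted p = 2e-04), and by 0.82 in each without wild type replicate 1.

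BI3, the maturase frame of the next COB intron, was at -3.63, -3.72, -3.52 and -3.74 in 58F and at -3.75, -3.71, -3.79 and -3.82 in 112A, against -4.87, -4.15, -4.41 and -4.17 in wild type. Again no intrabody array overlapped wild type. The change was 0.75 ± 0.13 in 58F (adjusted p = 0.000371) and 0.64 ± 0.13 in 112A (adjusted p = 0.00199), and 0.59 and 0.48 without wild type replicate 1.

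AI1 encodes a reverse transcriptase and maturase of a COX1 intron. Its levels were -0.35, -0.44, -0.26 and -0.28 in 58F and -0.09, -0.23, -0.08 and -0.13 in 112A, against -1.004, -0.55, -0.62 and -0.57 in wild type. The 112A arrays were the highest, the 58F arrays came next, and wild type was lowest, with no overlap between neighbours. AI1 was higher by 0.35 ± 0.09 in 58F (adjusted p = 0.00536) and by 0.55 ± 0.09 in 112A (adjusted p = 0.000525), and by 0.24 and 0.45 without wild type replicate 1.

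AI2, the other reverse transcriptase frame, was at 0.62, 0.51, 0.67 and 0.56 in 58F and at 0.71, 0.57, 0.60 and 0.63 in 112A, against -0.11, 0.45, 0.38 and 0.56 in wild type. The lowest 112A array and the highest wild type array were almost level, and 58F overlapped wild type. The change was 0.27 ± 0.11 in 58F (adjusted p = 0.0581) and 0.31 ± 0.11 in 112A (adjusted p = 0.0422). Both sit at the threshold. The 112A call was lost in 13 of 24 alternative settings, among them the fits without any 1 of the 8 intrabody arrays or without wild type replicate 3 (adjusted p 0.0519 to 0.0988). Without wild type replicate 1 the change was 0.13 in 58F, not called (adjusted p = 0.0746), and 0.17 in 112A, called (adjusted p = 0.0325). Without wild type replicate 4 AI2 was called in 58F (adjusted p = 0.0199).

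AI5_ALPHA, an endonuclease frame, measured 1.96, 1.84, 1.96 and 1.86 in 58F and 1.95, 1.86, 1.83 and 1.85 in 112A, against 1.13, 1.64, 1.49 and 1.62 in wild type. The intrabody arrays were all higher. The change was 0.44 ± 0.10 in 58F (adjusted p = 0.00186) and 0.40 ± 0.10 in 112A (adjusted p = 0.00481), and 0.32 and 0.29 without wild type replicate 1.

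AI5_BETA, whose product has no role given here, averaged -2.23 ± 0.05 in 58F and -2.28 ± 0.20 in 112A, against -2.51 ± 0.23 in wild type (SD, n = 4 each). Its change of 0.27 ± 0.12 in 58F (adjusted p = 0.0558) and of 0.22 ± 0.12 in 112A (adjusted p = 0.131) was not called. The first was called without 112A replicate 1 or 2 or wild type replicate 2 (adjusted p 0.0373 to 0.0434). Without wild type replicate 1 the change was 0.16 in 58F (adjusted p = 0.15) and 0.11 in 112A (adjusted p = 0.348).

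SCEI, the endonuclease of the intron in the large ribosomal RNA, is given as a description, with no test, since its probe met the background criterion only through the intrabody arrays. Its levels were -5.66, -5.55, -5.60 and -5.62 in 58F and -5.10, -5.07, -5.65 and -5.37 in 112A, against -9.18, -8.48, -7.63 and -7.92 in wild type. Every wild type array was far below every intrabody array. The probe was well above background on 2 of 4 arrays in 58F and on 2 of 4 in 112A, against 0 of 4 in wild type, so the wild type level is only an upper limit. For a rough size, each wild type array was given its lowest signal well above background, or the probe's own signal where that was higher. Set against these, SCEI was 3.81-fold higher in 58F and 4.71-fold higher in 112A. These are not strict lower limits, since the intrabody means include arrays on which SCEI was not well above background. With normexp background correction of the median pixel signal, which compresses dim signals, the fitted log2 change was 1.38 in 58F and 1.74 in 112A.

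**Figure D3:**
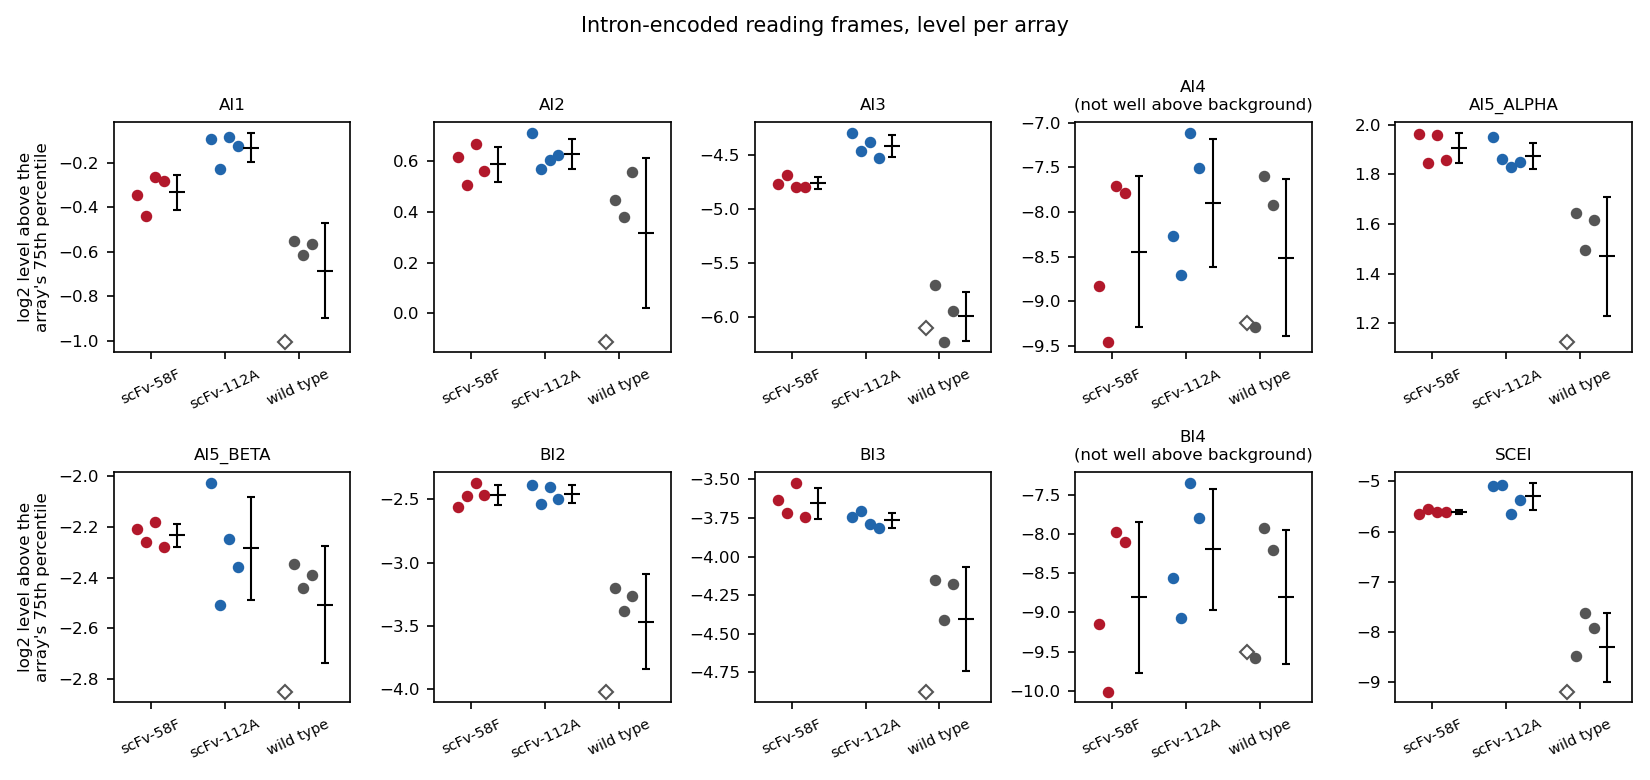
Level of the 10 intron frames on each array (log2 signal above the array's 75th percentile), in 58F, 112A and wild type from left to right, with the open diamond for wild type replicate 1 and black bars for the group mean ± SD (n = 4). AI3, BI2, BI3 and SCEI show the widest gaps to wild type, and the panels of AI4 and BI4 hold signals that were not well above background.

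Several intron frames changed more than the gene they lie in. This was described for each array as the log2 ratio of the intron frame's probe to the probe of COX1 or COB, in which a scaling factor per array cancels; it carries no test, and it shows unequal change of the 2 probes only. Relative to COB, BI2 was 1.30 higher in 58F and 1.18 higher in 112A than in wild type, and BI3 was 1.05 higher and 0.81 higher. In all of these neither intrabody group overlapped wild type. Relative to COX1, AI3 was 1.02 higher in 58F and 1.55 higher in 112A than in wild type, again with no overlap.

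The other COX1 intron frames differed less from COX1. AI1 was 0.14 higher in 58F and 0.53 higher in 112A relative to COX1, and AI5_ALPHA was 0.23 higher and 0.38 higher, with no overlap with wild type. AI2 at 0.06 and 0.29 and AI5_BETA at 0.07 and 0.20 overlapped wild type. Without wild type replicate 1 the differences were 1.13 in 58F and 1.01 in 112A for BI2, 0.91 and 0.67 for BI3, 1.07 and 1.59 for AI3, and 0.12 and 0.50 for AI1. With normexp background correction AI3 was 0.75 and 1.18 higher relative to COX1, and AI1 in 58F 0.26 higher.

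**Figure D4:**
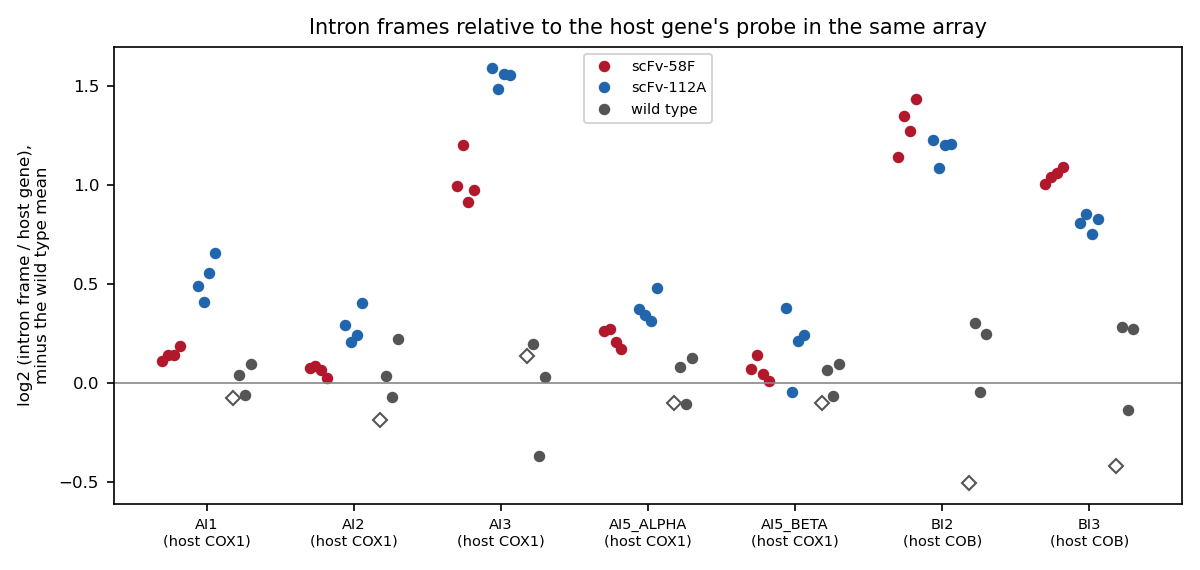
Log2 ratio of each intron frame's probe to the probe of its host gene on the same array, drawn relative to the wild type mean, in 58F, 112A and wild type from left to right, with the open diamond for wild type replicate 1. AI3 reaches 1.02 in 58F and 1.55 in 112A at the mean and BI2 reaches 1.30 and 1.18, while AI2 and AI5_BETA overlap wild type.

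The 4 frames without a symbol have no role given in the annotation used. Q0255, which follows COX2 in the annotation, stood at -4.13, -4.18, -4.08 and -4.28 in 58F and at -4.05, -4.47, -4.16 and -4.26 in 112A, against -5.21, -4.88, -4.97 and -4.90 in wild type. The intrabody arrays were all above wild type, by 0.82 ± 0.09 in 58F (adjusted p = 1.7e-05) and by 0.75 ± 0.09 in 112A (adjusted p = 8.54e-05), and by 0.75 and 0.68 without wild type replicate 1. These changes are of the same order as those of COX2, given above.

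Q0182.1 was at -3.47, -3.48, -3.41 and -3.72 in 58F and at -3.49, -3.66, -3.81 and -3.83 in 112A, against -4.50, -4.21, -4.35 and -4.12 in wild type. It did not overlap between the intrabody strains and wild type either. The change was 0.77 ± 0.10 in 58F (adjusted p = 4.77e-05) and 0.59 ± 0.10 in 112A (adjusted p = 0.000641), and 0.70 and 0.52 without wild type replicate 1.

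The 2 probes of Q0010.1 disagreed. Probe A_06_P1001 was at -5.25, -5.37, -5.66 and -5.73 in 58F and at -5.52, -5.54, -5.74 and -5.77 in 112A, against -6.12, -6.32, -5.95 and -6.09 in wild type. It was higher by 0.62 ± 0.11 in 58F (adjusted p = 0.000561) and by 0.48 ± 0.11 in 112A (adjusted p = 0.00484), and by 0.62 and 0.48 without wild type replicate 1. The 112A call was lost with cyclic loess scaling (adjusted p = 0.172). Its signal was dim, well above background on 3 arrays of 58F, 2 of 112A and 3 of wild type, and its 2 spots differed by up to 1.35 log2 units on an array. Probe A_06_P1002, well above background on all 12 arrays, changed by -0.01 ± 0.05 in 58F (adjusted p = 0.843) and by 0.06 ± 0.05 in 112A (adjusted p = 0.406), and by -0.03 and 0.04 without wild type replicate 1.

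Q0297.1 averaged -1.28 ± 0.18 in 58F and -1.20 ± 0.13 in 112A, against -1.35 ± 0.41 in wild type (SD, n = 4 each), and was not called in any comparison. Its change was 0.07 in 58F and 0.15 in 112A, and -0.13 and -0.05 without wild type replicate 1.

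Between the intrabody strains themselves few mitochondrial probes were called. Of the 21 tested, 58F had 0 called higher and 1 called lower than 112A, beside 14.0% higher and 17.8% lower of all probes. All 4 arrays of 58F were above all 4 of 112A for 1 probe and below them for 2, beside 15.1% and 19.3% of all probes. At an unadjusted p under 0.05, COX1 was higher and AI1 and AI3 were lower. The median change was 0.03 over the mitochondrial probes and -0.02 over all probes. Changes of single mitochondrial probes ran from -0.34 to 0.18, and the 10th to 90th percentile of all probes was -0.33 to 0.25. The fit shares its spread with the wild type arrays, replicate 1 included. Without that array 1 mitochondrial probe was called higher and 2 lower. With any 1 array left out, 596 to 984 of all probes were called higher and 773 to 1274 lower.

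AI3 was the probe called lower, with a change of -0.34 ± 0.10 (adjusted p = 0.0183), with all 4 arrays of 58F below all 4 of 112A. It was no longer called with 112A replicate 1 left out (adjusted p = 0.0571) or with cyclic loess scaling (-0.19, adjusted p = 0.19). AI1 was also lower on every 58F array, with a change of -0.20 ± 0.09 (adjusted p = 0.112), and COX1 higher on every 58F array, with a change of 0.18 ± 0.08 (adjusted p = 0.0996). Both were called when wild type replicate 1 was left out of the shared estimate of spread, at adjusted p of 0.00937 and 0.0217. Relative to COX1, the difference in 58F from 112A was -0.52 for AI3, -0.38 for AI1, -0.22 for AI2 and -0.15 for AI5_ALPHA, each with no overlap. Relative to COB it was 0.24 for BI3, also with no overlap. For the remaining probes the change lay between -0.31 and 0.18 and was not called, which does not show that the strains were alike.

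Nuclear genes whose products work with the mitochondrial genome were counted in lists, against shares over all probes of 29.7% called higher and 32.1% lower in 58F against wild type, 23.0% and 25.3% in 112A against wild type, and 14.0% and 17.8% in 58F against 112A. The median change over all probes was -0.01, -0.00 and -0.02 in these comparisons. Of 32 nuclear subunits of complexes III, IV and V, the direct partners of COX1, COX2, COX3, COB, ATP6, ATP8 and OLI1, 0 were called higher and 31 lower in 58F than in wild type, with a median change of -0.83, and 0 higher and 17 lower in 112A, with a median of -0.26. In 58F against 112A 1 was called higher and 30 lower, at a median of -0.63. COX5A, a nuclear subunit of complex IV, changed by -1.31 ± 0.13 in 58F (adjusted p = 5.25e-06) and by -0.51 ± 0.13 in 112A (adjusted p = 0.00666) against wild type. COX8, another, changed by -1.26 ± 0.09 in 58F against wild type (adjusted p = 8.16e-07).

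The mitochondrial ribosomal protein genes of the nucleus, partners of VAR1, had 2 of 73 called higher and 54 lower in 58F than in wild type, and 1 higher and 52 lower in 112A. Their medians were -0.27 and -0.24. RSM22 changed by -0.93 ± 0.07 in 58F (adjusted p = 7.98e-07) and by -0.64 ± 0.07 in 112A (adjusted p = 3.56e-05).

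Of 22 genes for transcription, RNA processing and decay in mitochondria, 3 were called higher and 12 lower in 58F than in wild type, beside 29.7% and 32.1% of all probes, with a median change of -0.31. In 112A 2 were called higher and 11 lower, beside 23.0% and 25.3%, with a median of -0.16. MRS1, which helps to splice introns of COX1 and COB, fell by 0.85 ± 0.05 in 58F (adjusted p = 2.03e-07) and by 0.41 ± 0.05 in 112A (adjusted p = 5.91e-05). DSS1, the exonuclease of the mitochondrial RNA-degrading complex, fell by 0.86 ± 0.09 in 58F (adjusted p = 1.06e-05) and by 0.43 ± 0.09 in 112A (adjusted p = 0.00282). Against wild type, MTF1, the specificity factor of the mitochondrial RNA polymerase, fell by 0.60 ± 0.09 in 58F (adjusted p = 0.000104) and by 0.46 ± 0.09 in 112A (adjusted p = 0.00126). In 58F against 112A, 2 of the 22 were called higher and 7 lower, beside 14.0% and 17.8% of all probes, with a median of -0.11. There SUV3, the partner helicase of DSS1, fell by 0.35 ± 0.10 (adjusted p = 0.0176), and MRM2 was higher by 0.30 ± 0.05 (adjusted p = 0.000849).

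Among 29 translational activators and assembly factors, 1 was called higher and 17 lower in 58F and 0 higher and 16 lower in 112A, against wild type, with medians of -0.25 and -0.20. NCA3, needed for expression of ATP6 and ATP8, changed by -1.05 ± 0.09 in 58F (adjusted p = 1.51e-06) and by -1.003 ± 0.09 in 112A (adjusted p = 7.8e-06). AEP2, needed for translation of OLI1, changed by -0.85 ± 0.10 in 58F (adjusted p = 1.63e-05) and by -0.43 ± 0.10 in 112A (adjusted p = 0.0033).

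Of 18 genes for maintenance of mitochondrial DNA, 3 were called higher and 9 lower in 58F than in wild type, beside 29.7% and 32.1% of all probes, and 3 higher and 7 lower in 112A, beside 23.0% and 25.3%. Their medians were -0.13 and -0.08. RIM1, the single-stranded DNA binding protein of mitochondria, was higher by 0.47 ± 0.06 in 112A (adjusted p = 0.000169). ILV5, which acts in amino acid synthesis as well as in stability of mitochondrial DNA, fell by 2.27 ± 0.11 in 58F (adjusted p = 5.4e-08) and by 1.48 ± 0.11 in 112A (adjusted p = 2.23e-06). The retrograde response genes belong to a pathway that is active in yeast cells lacking mitochondrial DNA. Of the 11 listed, 0 were called higher and 10 lower in 58F, and 0 higher and 9 lower in 112A. ACO1 stands in both of these last lists.

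Another kind of RNA that lacks a poly(A) tail when mature was measured by 2 probes, both for small nucleolar RNAs. SNR10 stood at 0.56, 0.57, 0.78 and 0.62 in 58F and at 0.81, 0.87, 0.88 and 0.89 in 112A, against -0.13, 0.50, 0.50 and 0.51 in wild type. Wild type replicate 1 was the low array here too. SNR10 was higher by 0.51 ± 0.12 in 112A (adjusted p = 0.00524) and its change in 58F was 0.29 ± 0.12 (adjusted p = 0.0612). SNR73 changed by -0.01 ± 0.06 in 58F and by -0.07 ± 0.06 in 112A against wild type and was not called (adjusted p = 0.874 and 0.315). The part of these differences in those of the mitochondrial probes was not tested.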

How the data were processed

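RNA of 12 samples was measured on single-colour Agilent arrays, per the labels from 200 ng of poly(A)+ RNA labelled with Cy3. The files deposited by the authors hold a processed signal, an intensity which, per the file headers of Agilent Feature Extraction 10.7.3.1, has the local background subtracted and is not scaled between arrays; median pixel intensities of spots and of their background stand beside it. A further table deposited by the authors gives log2 values of 5297 probes, 14 of the 23 mitochondrial ones among them. Its column medians were 11.27 to 11.37 and its offset to the scaled values was 12.49 to 12.54 at the median; how it was scaled is not stated, and it served only as an alternative.

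Spots flagged as outliers (25 to 125 gene spots per array) were left out, 0 gene spots were saturated, and 87.0% to 94.7% of gene spots per array were well above background. The log2 processed signal minus the array's 75th percentile was averaged over the 2 spots of a probe. For the 3 comparisons, limma 3.58.1 (R 4.3.3; lmFit, then eBayes, 2-sided) fitted group means over all 12 arrays, with Benjamini-Hochberg adjustment over all 5858 probes tested. The number of arrays limits the precision. The analysis was tested on simulated data. The files hold no mean pixel signal, so the normexp alternative, with an offset of 50, used the median pixel signal.

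The 23 members were taken by systematic name. Values on each array are given for the protein genes and for every other mitochondrial probe called in a comparison, and up to 4 called nuclear genes with the largest change per list and comparison could be named. Members, classes and lists were chosen with earlier results of these data known. DMR1 and PPR3 of the lists have no probe. Gene names come from the files and from the annotation of assembly R64, and no coordinates are given because the arrays were designed on another build. Neither files nor annotation used here hold probe or gene sequences, so none are printed.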

Additional observations from a re-analysis of the deposited data

Results flagged for a closer look

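In 4 of the 63 groups of 4 arrays examined for the 21 tested mitochondrial probes, 1 array stood far from the other 3, and chance alone flags about 1 group in 20. COX3 was 0.033 on wild type replicate 1, against 0.54 to 0.61 on the other wild type arrays, and AI1 was -1.004 there, against -0.62 to -0.55. COB was 2.21 on 112A replicate 4, against 2.29 to 2.30 on the other 112A arrays, and 2.57 on wild type replicate 3, against 2.40 to 2.41 on the other wild type arrays.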

How the results depend on the processing

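Each result was recomputed under 24 alternatives. The counts and medians of mitochondrial probes in this section include SCEI wherever it was tested. With SCEI, the main fit called 15 of 21 higher and 1 lower in each comparison with wild type, against 14 of 20 higher without it. SCEI met the background criterion only through the intrabody arrays, so its part in these counts and in those below is no result. The shares over all probes in the main fit are given above, and they changed with the setting. For the 2 groups alone, the authors' deposited values, the criterion of all 12 arrays and the replicate block, that share is not given here. Of 1479 recomputed changes of single mitochondrial probes, 1411 kept their direction and their side of the threshold, 45 lost a call, 21 gained one and 2 reversed: OLI1 against wild type under quantile scaling, at -0.12 in 58F (adjusted p = 0.00407) and -0.12 in 112A (adjusted p = 0.00613). The cause was not tested. The median change of the mitochondrial probes ranged from 0.30 to 0.55 in 58F and from 0.36 to 0.55 in 112A against wild type, and from -0.05 to 0.06 in 58F against 112A. In 58F against 112A, cyclic loess scaling called 1 higher and 0 lower, the 2 groups alone 1 higher and 2 lower, and the authors' deposited values and the criterion of all 12 arrays above background 0 lower; AI3 is not among the probes of these last 2. In 112A against wild type, 8 were called higher and 0 lower with the authors' deposited values, which hold 14 of the 23 probes, and 0 lower with cyclic loess scaling. With 1 array left out, 13 to 17 were called higher and 1 lower in 58F and 14 to 15 higher and 0 to 1 lower in 112A against wild type, and 0 to 1 higher and 0 to 2 lower in 58F against 112A. Of all probes, 1537 to 1790 were then called higher and 1759 to 1915 lower in 58F against wild type. For 112A against wild type these counts were 1121 to 1456 and 1260 to 1444, and for 58F against 112A 596 to 984 and 773 to 1274. With the replicate number as a block, 13 were called higher and 1 lower in 58F and 14 higher and 1 lower in 112A against wild type, and 0 higher and 1 lower in 58F against 112A; arrays of the same number correlated in their deviations with r of -0.18 to 0.19 and did not all match their own number best, so the number was not taken as pairing. Against wild type, the nuclear subunits of complexes III, IV and V had 30 to 31 called lower in 58F and 13 to 18 in 112A. In the main fit, 32.1% and 25.3% of all probes were called lower in these comparisons. Dim signal limits AI3, SCEI and the first probe of Q0010.1, and leaves AI4 and BI4 without a value.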
